A study of Mus musculus with 8 samples.

Results

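The 11B3 interval is a segment of mouse chromosome 11 that runs from Sco1 to Alox12 and holds Trp53. The genes described here lie on its Alox12 side, from Atp1b2 to Rnasek. The list named 33 genes by symbol, leaving out neighbours such as Polr2a, Eif5a and Gabarap. Of these, 29 had a row under that symbol among the 18860 genes of each library. Dullard and Mgl1 were found by RefSeq synonym under their current symbols, Ctdnep1 and Clec10a, and are given beside the 29 without entering the counts. Cldn7 and Asgr1 were not analysed here.

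RNA was sequenced from leukaemia cells of the bone marrow of moribund C57BL/6 mice, 8 libraries in all. In the 11B3-deleted group (4 libraries, genotype 11B3fl/p53fl;shNf1;shMll3;Vav1-Cre) 1 of the 2 copies of the interval is removed by Cre, while Trp53 on the remaining copy is floxed. In the p53-loss-only group (4 libraries, genotype p53fl/fl;shNf1;shMll3;Vav1-Cre) both Trp53 alleles are floxed and both copies of the neighbouring genes remain. Both groups share Vav1-Cre, a recombinase driven by a promoter active in blood cells, and short hairpins against Nf1, a negative regulator of Ras, and Mll3, a histone methyltransferase. The labels give no ages and do not say whether the lines are from different animals, so p-values here reflect only how these 8 libraries vary, which may be technical variation. The comparison asks what is lost with the segment beyond Trp53 itself, and for each gene whether its RNA stood at 50% of the p53-loss-only level.

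A gene with 1 copy in place of 2 gives 50% of the RNA if each copy is transcribed as before, which is -1 on the log2 scale. In bulk RNA, fewer cells of a type and less RNA per cell cannot be told apart. The genes of this segment share no pathway. Some are used by nearly all cells (Senp3, Gps2, Phf23, Mpdu1, Acadvl), whereas others are known from nerve and muscle (Dlg4, Nlgn2, Chrnb1), liver and macrophages (Asgr2, Mgl1) or germ cells (Ybx2).

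Values are those deposited, read counts scaled for library size plus 1. Between 30502718 and 35719495 reads per library were assigned to genes. All 11 leukocyte and myeloid markers had a row, with summed values of 278300 to 923500 in the 11B3-deleted libraries and 395100 to 677400 in the p53-loss-only libraries, and the 95% interval of each marker's difference held 0. The library labelled 11B3-deleted replicate 3 stood apart in B cell markers, with a summed value of 48400 over 8 genes against 385.7 to 2144 in the other 7 libraries. 11B3-deleted replicate 1 stood apart in erythroid markers, with 178200 over 10 genes against 970.6 to 42510 elsewhere.

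The bases before the start sites of 3 genes are shown because their levels differ widely here, with mean p53-loss-only values of 2652 for Phf23, 974.2 for Dvl2 and 3.85 for Asgr2. Phf23 and Dvl2 are neighbours that were read in every leukaemia and did not overlap between the groups, and Asgr2 was at most a few reads in any library. The sequences are from RefSeq (build GRCm38.p6), each the 250 bases before the first listed start site, 5′ to 3′ on the gene's strand, with capitals marking the GC box GGGCGG or its complement CCGCCC.
Phf23 (chr11:69995516-69995765, plus strand): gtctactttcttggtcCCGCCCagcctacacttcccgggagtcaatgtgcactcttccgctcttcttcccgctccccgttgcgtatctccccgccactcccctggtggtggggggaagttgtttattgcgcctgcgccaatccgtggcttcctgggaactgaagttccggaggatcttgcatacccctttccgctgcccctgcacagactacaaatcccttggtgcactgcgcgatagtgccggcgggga
Dvl2 (chr11:70000342-70000591, plus strand): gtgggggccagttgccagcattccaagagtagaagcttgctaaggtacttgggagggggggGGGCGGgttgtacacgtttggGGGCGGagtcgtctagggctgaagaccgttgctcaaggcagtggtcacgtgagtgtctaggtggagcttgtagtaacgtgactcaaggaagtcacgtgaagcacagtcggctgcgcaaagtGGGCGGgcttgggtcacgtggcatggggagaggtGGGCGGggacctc
Asgr2 (chr11:70092394-70092643, plus strand): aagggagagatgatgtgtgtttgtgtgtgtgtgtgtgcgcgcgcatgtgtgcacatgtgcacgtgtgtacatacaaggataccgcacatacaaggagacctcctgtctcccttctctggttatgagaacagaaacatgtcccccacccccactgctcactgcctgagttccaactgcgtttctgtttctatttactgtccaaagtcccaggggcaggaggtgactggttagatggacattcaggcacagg

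Dvl2 held 4 GC boxes, Phf23 held 1 and Asgr2 held 0 in these windows. The motif was searched on both strands, and 32.9% of 27025 promoters of the same length held it. CpG pairs numbered 16 before Phf23, 13 before Dvl2 and 6 before Asgr2, beside a median of 6 over all promoters. Promoters were matched for 23 of the 29 genes, and the 19 tested genes among them had a median of 16 CpG pairs and 60.4% G and C, against 52% over all promoters. A GC box was present before 9 of those 19. The 4 matched genes that did not pass the filter on low values had a median of 8.5 CpG pairs, from 6 for Asgr2 to 35 for Ybx2. These are descriptions of windows and say nothing of which factors bind there.

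Of the 29 genes, 24 passed the filter on low values (4 or more libraries with values of 10 or above) and 5 did not. The 24 tested genes had a median log2 difference of -1 (11B3-deleted minus p53-loss-only), which is 50% of the p53-loss-only level, beside 0.01 over all 14679 tested genes. In 23 of the 24 the mean log2 value was lower in the 11B3-deleted group, beside 48.4% of all tested genes. For 18 the 95% interval of the difference, from limma and unadjusted, lay wholly below 0, beside 2.38% of all tested genes, and for 0 it lay above 0 (1.18% of all tested genes). In 14 each 11B3-deleted library was below each p53-loss-only library, beside 1.23% of all tested genes. In the other 10 genes at least 1 library crossed into the range of the other group. All 8 libraries had values of 10 or above in 20 of the 24, and the remaining 4 were Shbg, Slc16a11, Fgf11 and Bcl6b. Without any filter the median over all 29 was -0.91, and the added 1 pulls the folds of the lowest genes towards 0.

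No tested gene departed from 50% by its interval. The 95% interval excluded -1 in 0 of the 24 genes, beside 67.4% of all tested genes, and 18 intervals lay below 0 while holding -1, beside 2.13% of all tested genes. The other 6 intervals, of Atp1b2, Chrnb1, Fgf11, Nlgn2, Bcl6b and 0610010K14Rik, held both 0 and -1, so this fit separates neither possibility for them. For 3 of the 6 another setting put the interval wholly below 0. Atp1b2 did so with edgeR, with DESeq2 and without p53-loss-only replicate 3. Nlgn2 did with DESeq2 and without 11B3-deleted or p53-loss-only replicate 3, and 0610010K14Rik with DESeq2 and without 11B3-deleted replicate 3. Other settings moved estimates towards 0. Without p53-loss-only replicate 2, the log2 difference of Atp1b2 was -0.57 in place of -1.06. That of Chrnb1 was -0.33 in place of -0.82 without p53-loss-only replicate 2 or 4. An interval that holds -1 does not show that a gene is at 50%: the narrowest, that of Gps2, ran from 46.9% to 78.8% of the p53-loss-only level, and that of Fgf11 ran from 11.8% to 355%. By the same limma test, the 18 genes with intervals below 0 were those with an unadjusted p under 0.05, beside 523 of all 14679 tested genes. After Benjamini-Hochberg adjustment over all genes, 0 of the 24 passed limma (smallest adjusted p = 0.419, for Phf23), beside 0.0136% of all tested genes called lower. With edgeR on the recovered reads 0 passed (background 0.00681% lower), and with DESeq2 7 did, beside 0.341% of all tested genes called lower. The 7 were Mpdu1, Gps2, Neurl4, Kctd11, Phf23, Dvl2 and Rnasek.

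**Figure D1:**
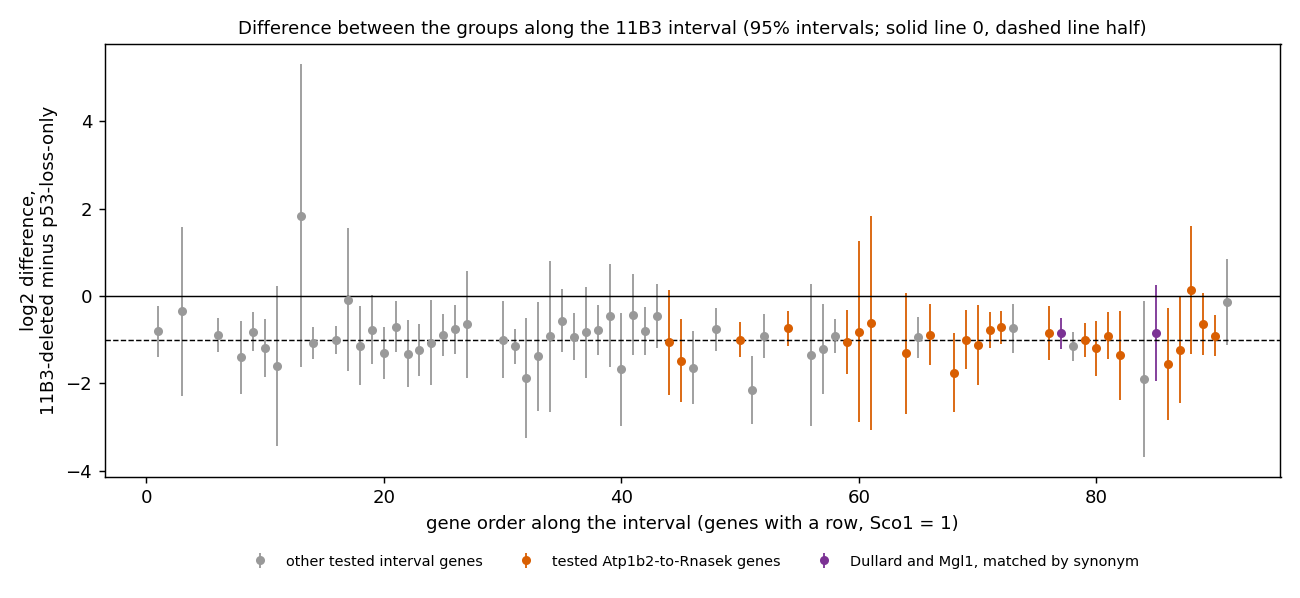
Log2 difference between the groups (vertical axis, 11B3-deleted minus p53-loss-only) with its 95% interval for each tested gene, in gene order from Sco1 (horizontal axis). The 24 tested Atp1b2-to-Rnasek genes (orange) centre on the dashed line at -1, 18 intervals lie below the solid line at 0, and no orange interval misses -1.

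The point estimates ran from 29.6% of the p53-loss-only level for Kctd11 to 110% for Bcl6b. Their standard deviation on the log2 scale was 0.38, beside a median standard error of 0.32 for a single gene (0.17 for Gps2 to 1.09 for Fgf11). Shifts of a whole library, shared by the genes, enter that error but not that spread. The comparison therefore cannot show whether dosage was equal between genes. In the 10 genes with a standard error under 0.3, a limit chosen after the values were seen, the level ran only from 43.5% for Dvl2 to 60.8% for Gps2. All 10 of those intervals lay below 0, which follows from standard errors this small at those levels and is no separate evidence. Whether any of these genes differ from each other in dosage was not tested.

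**Figure D2:**
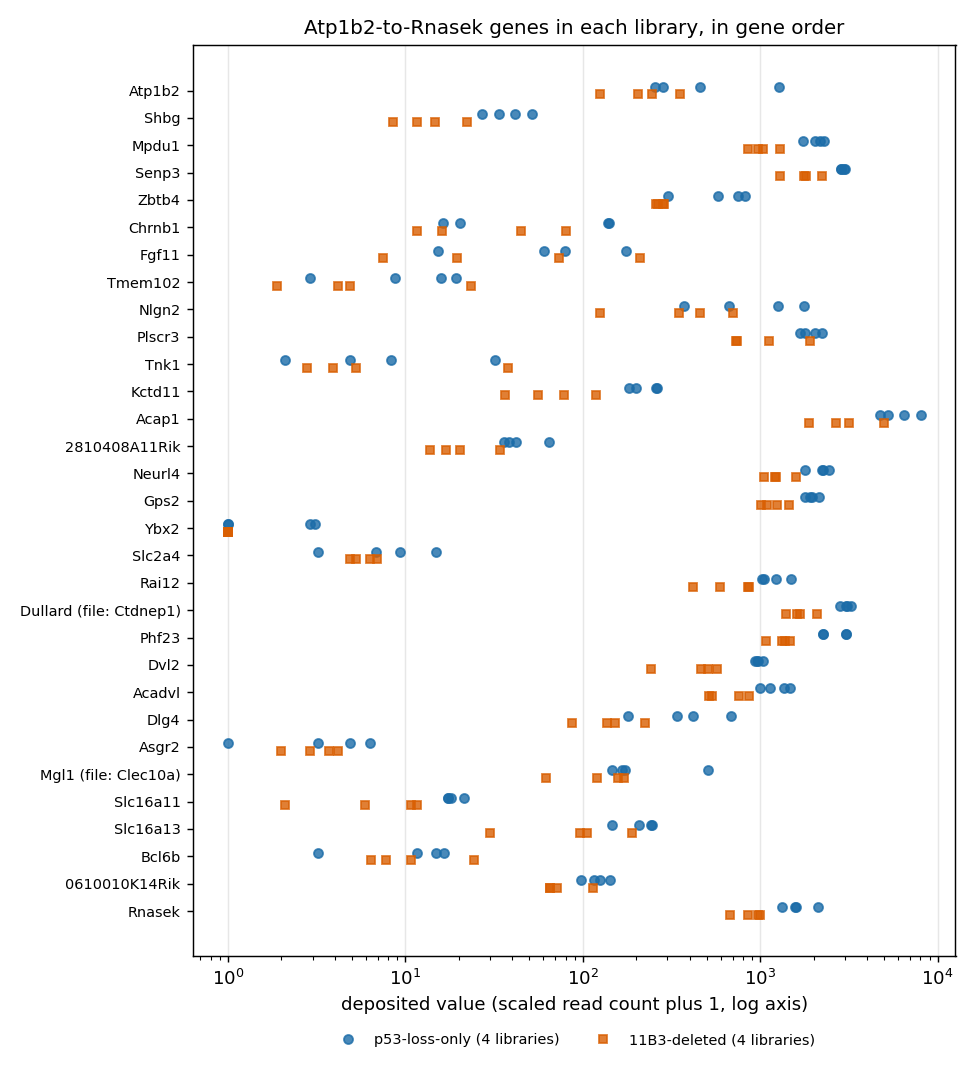
Deposited value (horizontal log axis) of each of the 31 genes with a row, in gene order, with 1 point per library. Squares of the 11B3-deleted group lie left of the circles of the p53-loss-only group without crossing in Senp3, Phf23, Dvl2 and Kctd11, whereas Chrnb1, Fgf11 and Bcl6b are interleaved.

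Nuclear regulators were among the best measured. All 6 were tested, all 6 had a lower mean, and 5 intervals lay below 0. Senp3, a SUMO protease that acts in the nucleolus on ribosome assembly factors, stood, in the deleted group, at 1757.4, 1297.7, 2227.4 and 1817.8, against 2982, 2843.2, 2841 and 3021 in the other group, each in the order of replicates 1 to 4, as for every gene below. The groups did not overlap, and the 4 p53-loss-only libraries were nearly level with each other. Senp3 stood at 59.7% of the level in the other group, a difference of -0.74 on the log2 scale (SE 0.18, 95% interval -1.15 to -0.34; limma adjusted p = 0.893). Without 11B3-deleted replicate 2, the lowest library, the interval of Senp3 lay wholly above 50%.

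Gps2, a subunit of the NCoR-SMRT corepressor complex, was at 1242.9, 1087.9, 1447.2 and 1006.6 against 2157.6, 1951.4, 1903.5 and 1798.5. Each 11B3-deleted library was below each p53-loss-only library. The log2 difference of Gps2 was -0.72 (SE 0.17; limma adjusted p = 0.874, DESeq2 adjusted p = 0.0183), and its standard error was the smallest among the 24. Phf23, a protein with a PHD finger that reads histone H3 methylation, was at 1375.6, 1082.5, 1464.6 and 1319.9 against 3033.5, 2269.8, 3042.7 and 2260.7. The p53-loss-only libraries of Phf23 formed a higher pair (replicates 1 and 3) and a lower pair, both well above all 11B3-deleted libraries. Phf23 stood at 49.7% of the p53-loss-only value, or -1.01 as a log2 difference (SE 0.18; limma adjusted p = 0.419, DESeq2 adjusted p = 0.000147).

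Zbtb4, a zinc finger protein that binds methylated CpG, was at 283.2, 259.3, 266.6 and 286.8 against 577.8, 753.3, 821.2 and 301.3. The 4 deleted libraries were within a narrow range, and p53-loss-only replicate 4 was closer to them than to the other 3 of its group. Its log2 difference was -1.07 (SE 0.32; limma adjusted p = 0.996). Rai12 (current symbol Elp5), a subunit of the Elongator complex that modifies transfer RNA, was at 855.3, 418.5, 869.5 and 593 against 1018.6, 1232.2, 1044.9 and 1490.8, with no overlap and 55.4% of the p53-loss-only level (95% interval 36.2% to 84.8%). 0610010K14Rik (also called Bap18), a chromatin-associated protein, was the 1 nuclear regulator whose interval held 0. It was at 65.4, 65.6, 114.4 and 71.1 against 142.8, 115.7, 97.5 and 125.6, where 11B3-deleted replicate 3 crossed p53-loss-only replicate 3.

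Signalling and ubiquitin adaptors contributed the lowest estimate. Of the 6 genes 5 were tested, all 5 with a lower mean, and 4 intervals lay below 0. Dvl2, a Dishevelled protein that carries Wnt signals from the receptor, was at 504.8, 242.1, 570 and 462.5 against 1030.3, 934.9, 964.8 and 966.9. The p53-loss-only libraries were tightly grouped and 11B3-deleted replicate 2 was far below the other 3 of its group. Dvl2 stood at 43.5% of the p53-loss-only value, or -1.2 as a log2 difference (SE 0.28; limma adjusted p = 0.874, DESeq2 adjusted p = 0.0218).

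Kctd11, an adaptor of Cullin-3 ubiquitin ligases that restrains Hedgehog signalling, was at 55.7, 36.5, 78.5 and 119 against 261.2, 181.7, 259.8 and 200.1. Even the highest deleted library was well below the lowest p53-loss-only library. Its 29.6% of the p53-loss-only level was the lowest estimate among the 24 (-1.76 in log2, SE 0.4, 95% interval -2.66 to -0.86; limma adjusted p = 0.874, DESeq2 adjusted p = 0.0142). That interval still held -1, and without 11B3-deleted replicate 4, the highest of its group, it lay wholly below 50%.

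Neurl4, a centriolar protein that regulates ubiquitination, was at 1235.1, 1048.1, 1580.9 and 1216 against 2226.6, 2245, 1791.6 and 2442.8, without overlap, and its log2 difference was -0.78 (SE 0.18). Acap1, a GTPase-activating protein of Arf6 in endosomal recycling, was at 1879.4, 3175.6, 5010.2 and 2680.5 against 4724, 6437.6, 5231.4 and 8039.9. Its highest deleted library, replicate 3, crossed the lowest p53-loss-only library. Acap1 stood at 50% of the p53-loss-only level (95% interval 31.3% to 80%). Fgf11, an intracellular member of the fibroblast growth factor family, was at 209.9, 7.5, 73.7 and 19.6 against 60.2, 175.3, 15.3 and 79.8, so both groups spanned most of the range. The sign of its difference turned without 11B3-deleted replicate 2. Tnk1, a non-receptor tyrosine kinase, did not pass the filter, with 37.8 in 11B3-deleted replicate 3, 31.9 in p53-loss-only replicate 4 and between 2.1 and 8.3 elsewhere.

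Metabolic, glycosylation and membrane genes were all on the lower side. By symbol 5 were tested, and all 5 intervals lay below 0. Mpdu1, which is needed to use dolichol-linked mannose and glucose in glycosylation, was at 1033.9, 972.7, 1287.2 and 854.8 against 2041.1, 2294.5, 1736.8 and 2184. The groups did not overlap, and each group was compact. Mpdu1 stood at 50% of the p53-loss-only value, or -1 as a log2 difference (SE 0.18; limma adjusted p = 0.425, DESeq2 adjusted p = 0.000321). Acadvl, the mitochondrial dehydrogenase that starts oxidation of very long fatty acids, was at 761.5, 516.5, 869.5 and 538 against 997.3, 1361.5, 1140.3 and 1468.4. These did not overlap either, at 53.3% of the p53-loss-only value, or -0.91 as a log2 difference (SE 0.23; limma adjusted p = 0.996).

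Plscr3, a phospholipid scramblase of mitochondria, was at 734.2, 743.5, 1906.6 and 1116.6 against 1793.5, 1666.1, 2225.8 and 2032.8. Its 11B3-deleted replicate 3 was inside the p53-loss-only range while the other 3 were below it. Dullard, a nuclear envelope phosphatase that activates lipins, was matched by synonym. It was at 1665.6, 1404.3, 2087.8 and 1608.3 against 3034.5, 2805.5, 3083.3 and 3255.3, with no overlap (log2 difference -0.86, SE 0.16; limma adjusted p = 0.425, DESeq2 adjusted p = 0.000741).

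The transporters Slc16a11 and Slc16a13, paralogs of the monocarboxylate transporter family, lie next to each other. Slc16a11 was low, at 5.9, 2.1, 10.7 and 11.7 against 21.4, 17.5, 17.4 and 18, without overlap. It held 28 reads in all 4 deleted libraries and 70 in the others. Slc16a13 was at 96.7, 30.1, 190 and 105.7 against 206.9, 146.9, 241.1 and 247, where replicate 3 of the deleted group crossed replicate 2 of the other. Its interval reached nearly to 0 (95% interval -2.44 to -0.04) and held 0 with edgeR, with DESeq2, and without any 1 of 6 libraries, namely 11B3-deleted replicates 1, 2 and 4 and p53-loss-only replicates 1, 3 and 4. Slc2a4, the insulin-regulated glucose transporter of muscle and fat, did not pass the filter, with values from 3.2 to 14.8.

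Genes of nerve and muscle varied most from library to library. All 4 were tested with a lower mean, and 1 interval, that of Dlg4, lay below 0. Dlg4, the postsynaptic scaffold PSD-95, was at 137.7, 87.1, 152.2 and 222.9 against 340.9, 417.5, 180.8 and 683.6, where p53-loss-only replicate 3 was below 11B3-deleted replicate 4. It stood at 39% of the p53-loss-only value, or -1.36 as a log2 difference (SE 0.45; limma adjusted p = 0.996). Nlgn2, an adhesion protein of inhibitory synapses, was at 456.9, 125.8, 706.6 and 349.8 against 667.1, 1266.1, 370.5 and 1757, and its groups overlapped. Atp1b2, a beta subunit of the sodium-potassium pump, was at 351.5, 125.8, 204.5 and 246 against 457.4, 1271.6, 256.5 and 284.3. Here p53-loss-only replicate 2 stood far above the rest. Chrnb1, a subunit of the muscle acetylcholine receptor, ranged from 11.7 to 80.5 in the deleted group and from 16.4 to 140.5 in the other, with a standard error of 0.92. Of 5 listed neuron markers 1 (Tubb3) had a row, and its value overlapped between the groups, and of 5 muscle markers 2 (Ckm and Acta1) had one. Summed muscle markers were 191.4 to 330.2 in the deleted group and 337.5 to 511.8 in the other, and neuron markers 81.8 to 249.6 and 65.2 to 148. Each deleted library was below each p53-loss-only library for Ckm, and its 95% interval lay below 0 (-1.42 to -0.17). Acta1 went the other way, with a mean of 12.98 in the deleted group against 6.85, and did not pass the filter. The part of nerve and muscle cells in these differences was not tested.

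The lectins of the list are sugar-binding proteins of liver cells and macrophages. Asgr2, a subunit of the asialoglycoprotein receptor of hepatocytes, did not pass the filter, with 9 reads over the 4 deleted libraries and 11 over the others. Mgl1, a galactose-binding lectin of macrophages and dendritic cells, was at 158.2, 62.3, 170.6 and 119.9 against 145.7, 166.1, 173.2 and 504.7. The groups overlapped, and p53-loss-only replicate 4 was far above all others (log2 difference -0.85, SE 0.49; limma adjusted p = 0.996). Summed monocyte and macrophage markers (11 of 12 with a row) were 28590 to 67050 in the deleted group and 38790 to 124100 in the other, with 40030 in p53-loss-only replicate 4. Of the 10 tested, 2 intervals lay below 0 (Cd14 and Cx3cr1) and 1 above (Mrc1), beside 2.38% and 1.18% of all tested genes. None of these 11 was at or under 3 reads in all libraries. Summed dendritic markers (6 of 6 with a row) were 3823 to 5558 in the deleted group and 2780 to 9047 in the other. Flt3 made up most of this sum in each library, at 2960 to 5201.1 and 2260.6 to 8184.3. Of these 6, 0 intervals lay below 0 and 2 above (Xcr1 and Cd209a), beside 2.38% and 1.18% of all tested genes. Those 2 were low, with means of 48.65 against 19 for Xcr1 and 104 against 27.54 for Cd209a. The part of macrophages and dendritic cells in the value of Mgl1 was not tested.

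The remaining genes included the other low ones. The row deposited as Rnasek, a small membrane protein tied to the vacuolar proton pump and endocytosis, was at 675.6, 972.7, 857.8 and 999.5 against 1598.3, 1567.9, 2107.4 and 1334.3. The groups did not overlap, and it stood at 53.2% of the p53-loss-only value, or -0.91 as a log2 difference (SE 0.2; limma adjusted p = 0.874, DESeq2 adjusted p = 0.017). Shbg, the sex hormone binding globulin, was at 14.7, 8.5, 11.7 and 22.3 against 27.2, 51.5, 33.9 and 41.5, low but without overlap (35.9% of the p53-loss-only level, 95% interval 18.7% to 68.9%). 2810408A11Rik was at 13.7, 20.4, 34 and 17 against 41.8, 64.3, 36.1 and 38.3, also without overlap. Its interval held 0 without 11B3-deleted replicate 1 or p53-loss-only replicate 2.

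Bcl6b, a transcriptional repressor related to Bcl6, was the 1 tested gene with a higher mean log2 value in the deleted group. It was at 7.8, 6.4, 24.3 and 10.8 against 16.5, 14.8, 3.2 and 11.6. These few reads, 47 in the deleted libraries and 43 in the others, were interleaved (0.13 in log2, SE 0.65, 95% interval -1.33 to 1.59). The sign turned without 11B3-deleted replicate 3 or without p53-loss-only replicate 3. Ybx2, a germ cell protein that binds RNA, had 0 reads in the deleted libraries and 4 in the others. Tmem102 ranged from 1.9 to 23.5 and did not pass the filter.

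Some of these values share reads or exons with a neighbour. In the GENCODE annotation of another build, GRCm38, exons overlap on opposite strands between Dvl2 and Acadvl, Plscr3 and Tnk1, Rai12 and Dullard, and Mpdu1 and Sox15. The row deposited as Rnasek has an identifier (ENSMUSG00000040904) that this annotation calls Gm21988. It shares 52.2% of its exon bases with 0610010K14Rik and 35.4% with the gene the annotation calls Rnasek, all on the same strand, and that second gene was not analysed here under its own identifier. The value given as Rnasek is therefore that of the deposited row and may hold reads of 0610010K14Rik. No source used here says whether strand was used in counting or how shared reads were assigned, so the 2 genes of each pair are not fully separate measurements. Pairs within the list were counted as 2 genes in the totals above.

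Across libraries, the deleted group was not uniform. The median over the 24 genes, each set against its p53-loss-only mean on the log2 scale, was -0.94, -1.32, -0.45 and -0.96 in the deleted group and 0.01, 0.08, -0.16 and 0.09 in the p53-loss-only group, in the order of the replicates. Replicate 2 was the lowest of its group in 16 of the 24 genes and replicate 3 the highest in 16. All 24 genes of replicate 2 were below their p53-loss-only mean, 23 were in replicates 1 and 4, and 21 were in replicate 3, where the exceptions were Chrnb1, Fgf11 and Bcl6b. Replicate 3 is also the library with the high B cell markers, and the part of those cells in its values was not tested. Without replicate 3 the median difference was -1.09 and 20 intervals lay below 0. Without replicate 2 it was -0.82 and 17 did.

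**Figure D3:**
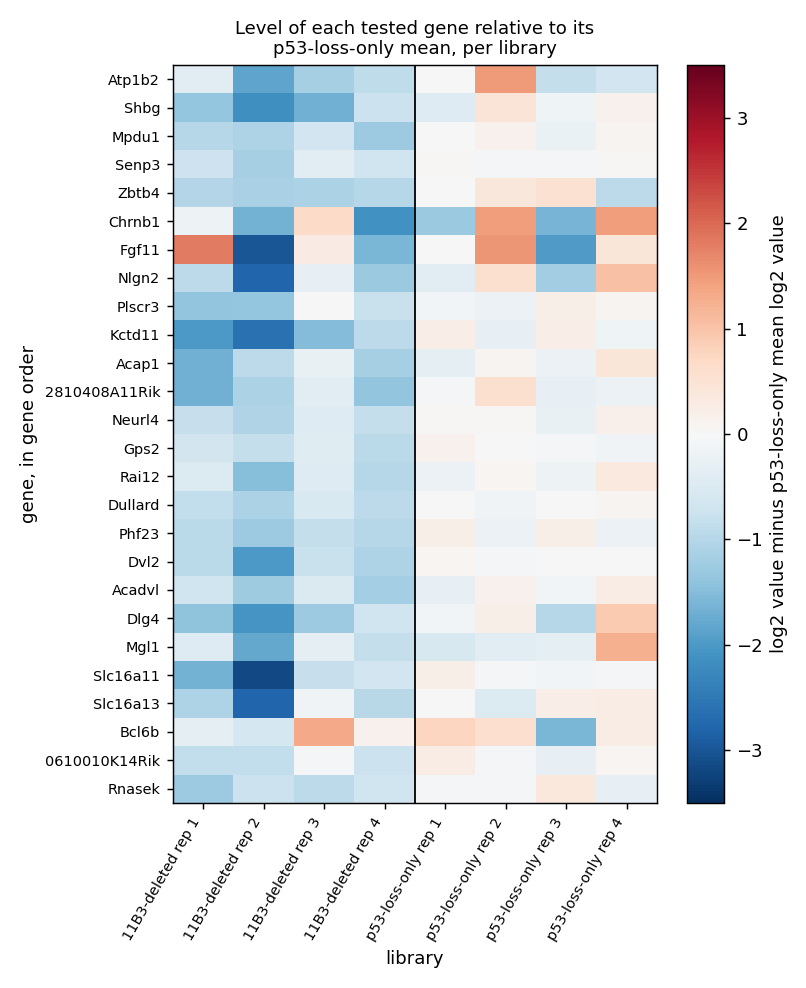
Level of the 24 tested genes and of Dullard and Mgl1 (vertical, in gene order) in each library (horizontal), as the log2 value minus the p53-loss-only mean; blue is lower and red higher. The 11B3-deleted columns are mostly blue, deepest in replicate 2 (median -1.32) and palest in replicate 3 (median -0.45), while the p53-loss-only columns scatter around 0.

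Genes on the rest of the interval were also lower in the deleted group. Of 59 with a row besides Trp53, 46 were tested, with a median log2 difference of -0.93, 33 intervals below 0 and 1 interval that excluded -1. That is 71.7% of the rest with an interval below 0, against 75% of the 24. Their library medians in the deleted group were -1.02, -1.11, -0.83 and -1.03, so replicate 3 was again the highest and replicate 2 the lowest. Beyond Alox12, the nearest 15 tested genes had a median of -0.2 with 4 intervals below 0 (26.7%), and 6 of their intervals excluded -1. Of these 15, 13 had a lower mean, beside 48.4% of all tested genes. Before Sco1 the nearest 15 had a median of -0.004 with 2 intervals below 0 (13.3%), and 9 excluded -1. Over all tested genes 2.38% of intervals lay below 0 and 67.4% excluded -1, so both flanks were above the background of intervals below 0. The difference between these groups of genes was not tested.

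Paralogs and partners of the listed genes that lie elsewhere in the genome were examined in 11 lists chosen for their known roles. Of 55 with a row, 54 were tested, with a median log2 difference of 0.09. For 51 of them the interval lay wholly above -1, beside 67.3% of all tested genes, and for 0 it lay below 0. The corepressor subunits that bind Gps2 were near their p53-loss-only level, with Ncor1 at 12990 ± 1588 against 11390 ± 439.9 and Hdac3 at 2294 ± 442.6 against 2196 ± 314 (SD, n = 4 each). The other Dishevelled genes were likewise near it, Dvl1 at 2486 ± 269.7 against 2846 ± 840.2 and Dvl3 at 938.3 ± 75.6 against 894.3 ± 48.6 (SD, n = 4 each). Fatty acid oxidation genes beside Acadvl had 9 of 11 higher means, beside 7573 of all 14679 tested genes, and all 11 intervals held 0. 11B3-deleted replicate 1 was the highest of its group for Acadm, Hadha, Hadhb, Hadh, Cpt2, Etfa, Etfb and Etfdh, not for Acads, Acadl and Cpt1a. The 5 Elongator genes beside Rai12 and the 6 dolichol mannose genes beside Mpdu1 also had intervals that held 0 and excluded -1.

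Of the 54 partners 1 had an interval above 0, beside 1.18% of all tested genes, so this count is near the background. It was Senp2, another SUMO protease, which was at 3263.8, 4035.4, 3227.7 and 3059.5 against 2589.7, 2614.7, 2426.5 and 2811.3, higher in each deleted library than in any p53-loss-only library. Its log2 difference was 0.37 (SE 0.14, 95% interval 0.05 to 0.69), and it did not pass the test over all genes (limma adjusted p = 0.996). Of the other 8 genes of that list, Senp1, Senp5, Senp6, Las1l, Tex10, Wdr18 and Npm1 had higher means and Senp7 a lower one, with intervals that held 0. The 3 partner genes whose intervals held -1 were the lactate transporter Slc16a3 and its relatives Slc16a7 and Slc16a10.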

How the data were processed

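RNA was measured in 8 libraries. STAR, HTSeq, DESeq and mm9 are named in the submitters' processing notes, without versions. The deposited signal values are read counts over a size factor, plus 1: with the 1 removed, 100% of values were whole reads (tolerance 0.02), 30502718 to 35719495 per library. Groups came from the titles. limma 3.58.1 (R 4.3.3) with a mean-variance trend was fitted to log2 of the deposited value, two-sided, group as the only term, with Benjamini-Hochberg adjustment over the 14679 genes that had values of 10 or above in 4 or more libraries. Its 95% intervals are unadjusted. Alternatives were edgeR 4.0.16 and DESeq2 1.42.0 on the recovered reads, TMM rescaling, an added constant of 5, other filters, each library left out and a replicate block; adding the 2 genes matched by synonym was chosen after seeing the data. Members, lists and tests were chosen with earlier results of these data known. The naming rule took genes whose interval excludes -1 or whose mean is higher, the 8 smallest standard errors, genes that open a role, and partners whose interval excludes 0; values of other genes were added after they were seen. All library pairs within a group differed beyond sampling noise. Gene order came from GENCODE (GRCm38), synonyms and promoters from RefSeq (GRCm38.p6). The fits were tested on simulated data. 1 monocyte and macrophage marker was left out of its list and is not reported here.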

Additional observations from a re-analysis of the deposited data

Results flagged for a closer look

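In 5 of 61 groups of 4 values checked, 1 library was set apart from the other 3 by Dixon's test. Chance gives about 1 in 20 for normally distributed values, but the test was run on values without a log transform. All 5 flagged values were the highest of their group. Tmem102 was at 23.5 in 11B3-deleted replicate 1 against 1.9 to 4.9 in the others. Tnk1 was at 37.8 in 11B3-deleted replicate 3 against 2.8 to 5.3. Mgl1 was at 504.7 in p53-loss-only replicate 4 against 145.7 to 173.2. Slc16a11 was at 21.4 in p53-loss-only replicate 1 against 17.4 to 18, a small gap in a gene with 70 reads over the 4 libraries. 0610010K14Rik was at 114.4 in 11B3-deleted replicate 3 against 65.4 to 71.1.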

How the results depend on the processing

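The median difference stayed between -0.82 and -1.09 and the count of intervals below 0 between 15 and 20 under every alternative. The count of intervals that excluded -1 was 0 and became 1 with the constant of 5 (Bcl6b); leaving out 1 library gave 0 to 1. Over all genes limma called 2, DESeq2 58, edgeR 1, the constant of 5 gave 1 and the value of at least 50 gave 1; leaving out 1 library gave 0 to 1. With the replicate block 0 genes passed and 17 intervals lay below 0, against 18 without it; the interval of 2810408A11Rik then held 0. Same-numbered libraries did not deviate together (correlations -0.03, -0.22, -0.41 and -0.24), and the labels give no shared origin, so the numbers were not treated as pairs. Leaving out 1 library moved Fgf11 between -1.44 and 0.17, reversed without 11B3-deleted replicate 2. Bcl6b moved between -0.41 and 0.38 and was reversed when 11B3-deleted replicate 3 (-0.26) or p53-loss-only replicate 3 (-0.41) was left out. Of 385 values of single genes under an alternative, 374 kept direction and call, 8 passed with DESeq2 alone and 3 turned sign. The causes were not tested. Low counts limit Bcl6b, Slc16a11, Shbg and the 5 untested genes.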
